A study of Saccharomyces cerevisiae BY4741 with 66 samples.

Results

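Fatty acid synthase of Saccharomyces cerevisiae is a barrel-shaped complex of alpha subunits, encoded by FAS2, and beta subunits, encoded by FAS1. It builds long-chain acyl chains from acetyl-CoA and malonyl-CoA, and the malonyl/palmitoyl transferase (MPT) domain loads malonyl groups and releases the finished chain. The MPT domain is assembled from both polypeptides: most of it lies at the C-terminal end of the beta subunit, and the N-terminal end of the alpha subunit completes it. In co-translational assembly, a finished subunit binds its partner while the partner is still being made on the ribosome.

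The FAS1dMPT-GFP strain carries a GFP-tagged FAS1 that lacks the 1165 base pairs of the gene that end at position 6153, and its libraries were selected as the IP and total libraries of that strain, 4 of the 66 in the series. Its IP translatome, 2 libraries, came from footprints of ribosomes that were pulled down on beads with an antibody against GFP, and its total translatome, 2 libraries, from ribosomes pelleted through sucrose. The strain was grown at 30 °C and 150 rpm in medium with added fatty acids, which the labels do not name. FAS1-GFP carries the tag on full-length FAS1 and grew in rich medium (YPD). The other 8 strains of the fit were GFP-tagged on full-length FAS2, GUS1, MES1, ARC1, PFK1, PFK2 or TRP2, or carried FAS1-GFP with a FAS2 that lacks its first 282 bp. Of these, TRP2-GFP grew in medium without tryptophan, the FAS2 deletion strain with added fatty acids and the rest in YPD, and all strains are BY4741 per the labels. The tag's promoter, the number of clones and whether the replicates came from separate cultures are not stated in the labels, so p-values measure the spread between these libraries, which may be technical.

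FAS1 (YKL182W) lies on the plus strand of chromosome XI at 100671 to 106826, and FAS2 (YPL231W) on the plus strand of chromosome XVI at 108652 to 114315, in the coordinates of the deposited tables, which equal those of assembly R64 for these genes. The deleted stretch corresponds to 105659 to 106823 on chromosome XI. It spans 1165 bp, or 18.9% of the 6156 nt of FAS1, touches codons 1663 to 2051 and leaves the last 3 bp of the annotated reading frame.

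The value step of each deposited table implied 13.3 and 8.47 M reads in the FAS1dMPT-GFP IPs and 27.7 and 26.3 M in its totals. Reads over listed genes made up 91.5% and 81.2% of the IPs and 95.8% and 95.5% of the totals, while 18 of the 23 other IPs with a table of values per gene were below 81%. Haploid a-cell genes summed to 728 and 657 scaled RPM, reads relative to a fixed library total, in the IPs and 782 and 637 in the totals, against 3.20 and 4.32, and 3.19 and 3.45, for alpha-cell genes, which is the a-cell pattern of BY4741. LEU2, MET17 and URA3, which BY4741 lacks, summed to 0 and 0.239 in the IPs and 0.0679 and 0 in the totals. HIS3, of which BY4741 carries a partial deletion, had 69.6 and 46.2 in the IPs and 81.2 and 83.0 in the totals. Scaled RPM are deposited values set to the reads over nuclear genes and divided by a trimmed-mean factor per library. All log2 differences below are of log2(scaled RPM + 1), so those of low genes come out too small. Libraries of 2 other strains bear on the values: in FAS1-GFP, 3 of the 4 libraries went against the BY4741 label, and in the strain with the FAS2 deletion the library labelled IP 2 held less FAS2 than its total (35.7 against 350 scaled RPM). Alpha-cell genes summed to 1355 and 844 scaled RPM in the FAS1-GFP IPs and 1792 and 3.60 in its totals. The a-cell genes summed to 23.3 and 117 in those IPs and 5.61 and 889 in the totals. LEU2, MET17 and URA3 summed to 920 and 429 in those IPs and 1020 and 0.982 in the totals, so total 2 alone had the BY4741 pattern.

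The comparison of IP with total in this strain asks whether the shortened beta subunit came down with ribosomes that were making its partner. FAS2 and the tagged FAS1 had log2 differences of 0.57 and 0.12, and neither was called. No feature was called among the 5137 tested (0%). Both IPs lay above both totals for 152 of 194 features of 4000 nt or more, against 27.4% of all features, and below both for 103 of 137 cytosolic ribosomal protein genes, against 29.3% of all features. A call here is a limma adjusted p below 0.05 with an absolute log2 difference of at least 1.

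FAS2, the alpha subunit, had 1810 and 2928 scaled RPM in the IPs and 1702 and 1404 in the totals. Both IPs lay above both totals, IP 1 narrowly and IP 2 clearly. The log2 difference was 0.57 ± 0.62 (SE, n = 2 each), 0.09 in the pair with replicate number 1 and 1.06 in the other, with a 95% interval from -0.70 to 1.85. FAS2 was not called by limma, adjusted p = 0.858. Without the libraries of the strain with the FAS2 deletion, whose replicates spread widely for FAS2, the SE was 0.29 and the limma adjusted p 0.821. FAS2 ranked 553 of 5137 features by this difference. Of the 194 tested features of 4000 nt or more, 93 stood above it.

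FAS1, the tagged beta subunit, had 3400 and 4154 scaled RPM in the IPs and 3340 and 3598 in the totals. IP 2 was the highest of the 4 libraries and IP 1 lay between the totals, so the groups overlapped. The log2 difference was 0.12 ± 0.22 (SE, n = 2 each), with a 95% interval from -0.33 to 0.56, and the limma adjusted p was 0.898. Its sign turned, to -0.031, without IP 2. Of the 194 long features, 163 had a larger difference than FAS1. The implied reads behind FAS2 were 25266.2 and 24452.5 in the IPs and 50151.7 and 39909.8 in the totals.

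Levels can be compared between the subunits only per length, here over the 4991 nt of FAS1 that the strain kept and the 5664 nt of FAS2. FAS1 stood at 681 and 832 scaled RPM per kb in the IPs and 669 and 721 in the totals. FAS2 stood at 320 and 517 scaled RPM per kb in the IPs and 301 and 248 in the totals. The ratio of FAS2 to FAS1 per kb was 0.469 and 0.621 in the IPs and 0.449 and 0.344 in the totals. FAS2 was below FAS1 in all 4 libraries. In FAS1-GFP the same ratio was 27.5 and 47.7 in the IPs and 0.909 and 0.924 in the totals; the difference between the totals of the strains was not tested.

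**Figure D1:**
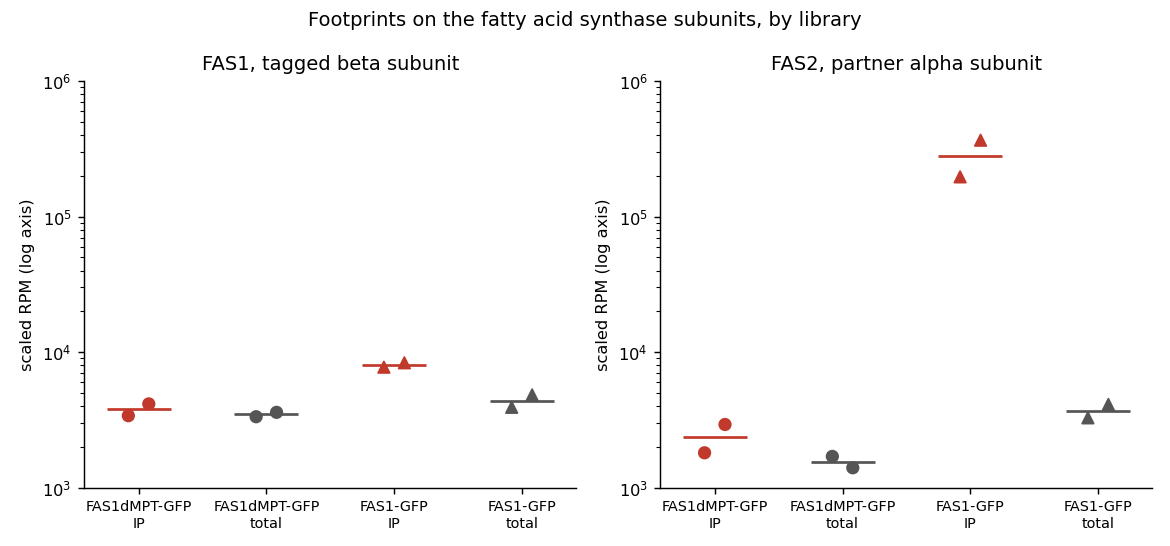
Scaled RPM of FAS1 (left) and FAS2 (right) on log axes in the IPs and totals of FAS1dMPT-GFP (circles) and FAS1-GFP (triangles); each symbol is a library and each bar the mean of 2. FAS2 reaches 196342 and 365950 in the FAS1-GFP IPs and stays at 1810 and 2928 in those of FAS1dMPT-GFP.

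The comparison with FAS1-GFP asks how the IP difference changed with the deletion. FAS2 was the 1 feature called of 5137 (0.0195%), and 114 features (2.22%) had an unadjusted p below 0.05. FAS2 had 1810 and 2928 scaled RPM in the FAS1dMPT-GFP IPs, against 196342 and 365950 in the FAS1-GFP IPs. In the totals it had 1702 and 1404 in FAS1dMPT-GFP, against 3277 and 4113 in FAS1-GFP. All 4 values were lower in FAS1dMPT-GFP, and the IPs differed far more than the totals. The IP difference of 0.57 log2 in FAS1dMPT-GFP, against 6.19 in FAS1-GFP, gave a change of -5.62 ± 0.87 (SE, n = 2 libraries per group) with a 95% interval from -7.41 to -3.82 and limma adjusted p = 0.00479.

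The change in FAS2 was negative in each alternative run, from -6.07 to -4.59, but the call depended on some of them. Without FAS1-GFP pair 2, whose IP and total have unlike mating-type patterns, it was -5.33 with limma adjusted p = 0.3002, and without the libraries of the strain with the FAS2 deletion it was -5.62 with adjusted p = 4.39e-09. The limma adjusted p was 0.0862 without FAS1dMPT-GFP IP 1, 0.0576 without its total 1, 0.101 without FAS1-GFP IP 2 and 0.0711 with no further scaling. The count of called features was 12 without FAS1-GFP total 1, 6 in each direction. The growth medium and the layout of the deposited tables differ between the strains along with the deletion. For 3 of the 4 FAS1-GFP libraries the mating-type pattern differs too. Reads over listed genes made up 37.8% and 57.7% of the FAS1-GFP IPs, against 91.5% and 81.2% of the FAS1dMPT-GFP IPs. Implied reads were 3.58 and 1.57 M in the FAS1-GFP IPs, against 13.3 and 8.47 M in those of FAS1dMPT-GFP. The parts of the deletion, the medium, the table layout, the mating-type pattern and the make-up of the pulldowns in the change cannot be told apart.

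FAS1 had 3400 and 4154 scaled RPM in the FAS1dMPT-GFP IPs and 7747 and 8345 in the FAS1-GFP IPs. Its totals were closer, 3340 and 3598 in FAS1dMPT-GFP and 3918 and 4839 in FAS1-GFP. The change of its IP difference was -0.77 log2 with a 95% interval from -1.40 to -0.14, and it was not called (limma adjusted p = 1.00).

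Outside the synthase, features were named by size of change, given an unadjusted limma p below 0.05 and at least 1 log2. Both pairs of one strain also had to lie beyond both pairs of the other, and none of these features was called. Features outside that rule could change more than some of those named, such as MET17 at -3.70, MF(ALPHA)1 at -3.49 and YPR108W-A at 2.40. HAC1, the transcription factor of the unfolded protein response, had 52.7 and 57.8 scaled RPM in the FAS1dMPT-GFP IPs and 42.2 and 44.5 in its totals. Its IP difference was 0.34 log2 in FAS1dMPT-GFP and 3.84 in FAS1-GFP. The mean over the strains tagged on GUS1, MES1, ARC1, PFK1, PFK2 or TRP2 was 2.60, so a high value was not particular to FAS1-GFP. The reading frame YJL047C-A, which overlaps the small nucleolar RNA gene SNR60, differed by -6.84, YDR133C by -2.34 and YEL076C by -2.27. For YJL047C-A the mean over those other strains was 6.42, against 0.98 in FAS1dMPT-GFP and 7.82 in FAS1-GFP. In the other direction SAM2, an S-adenosylmethionine synthetase, changed by 1.68. It had 1191 and 2602 scaled RPM in the FAS1dMPT-GFP IPs and 951 and 1076 in the totals. In FAS1-GFP it had 417 and 358 in the IPs and 451 and 1127 in the totals. The FAS1-GFP differences were -0.11 in pair 1 and -1.65 in pair 2, whose IP and total have unlike mating-type patterns. SOL4, a lactonase of the pentose phosphate pathway, differed by 2.60, and NNR1 and NNR2, which repair damaged nicotinamide nucleotides, by 1.99 and 1.89, and CBT1 by 1.73. SOL4 was listed at 0 in 1 FAS1-GFP IP, which the fitted difference rests on.

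The 6 strains tagged on subunits of other complexes (GUS1, MES1, ARC1, PFK1, PFK2 and TRP2) gave the IP differences of pulldowns with GFP on another protein. FAS2 had a log2 difference of 0.57 in FAS1dMPT-GFP and a mean of 0.24 over those strains, an excess of 0.33 with a 95% interval from -1.04 to 1.71 (limma adjusted p = 1.00). For FAS1 the excess was 0.06. One feature of 5137 was called in this comparison (0.0195%), and 105 (2.04%) had an unadjusted p below 0.05. The called feature was GUS1, the glutamyl-tRNA synthetase, with 1008 and 727 scaled RPM in the IPs and 1189 and 1053 in the totals of FAS1dMPT-GFP. Its log2 excess was -1.41 with limma adjusted p = 0.0469, and the mean of the other strains holds those tagged on GUS1 itself and on its partners ARC1 and MES1. The call was lost with no filter on low values and with no further scaling. It was also lost in most fits that left out 1 library. These included every fit without a library of FAS1dMPT-GFP, MES1-GFP, ARC1-GFP, PFK2-GFP or TRP2-GFP.

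Across all features of FAS1dMPT-GFP, 0 of 5137 (0%) were called by limma. With an unadjusted p below 0.05 there were 259 (5.04%), of which 235 (4.57%) were higher and 24 (0.467%) lower in the IPs. Both IPs lay above both totals for 1406 features (27.4%) and below them for 1506 (29.3%). Other fits made calls: 37 features, all higher, with a weight for each library, and 103 without IP 1 (100 higher, 3 lower).

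The pairs of libraries differed in extent more than in direction. IP 1 correlated with total 1 at r = 0.992 over the tested features and IP 2 with total 2 at 0.922, and the totals with each other at 0.997. The log2 differences of pair 1 had an SD of 0.246 and those of pair 2 an SD of 0.746. In pair 1, 15 features differed by at least 2-fold, all of them higher in the IP. In pair 2, 709 did, 487 higher and 222 lower. The differences had the same sign in both pairs for 3837 features (74.7%), and they correlated across features at r = 0.717, a description, since features share the libraries. IP 2 was also the shallower of the IPs, at 8.47 M reads, and held the lower share of reads over genes; the part of depth in the wider spread was not tested.

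**Figure D2:**
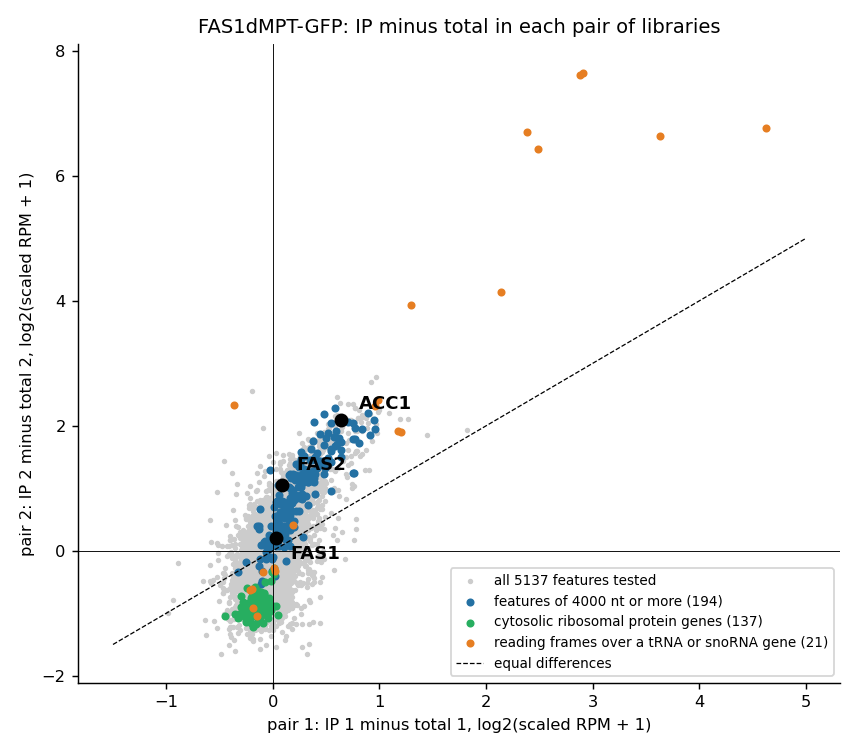
IP minus total of pair 1 (x axis) against pair 2 (y axis) for the 5137 tested features of FAS1dMPT-GFP, in log2(scaled RPM + 1); coloured points are long features, cytosolic ribosomal protein genes and reading frames over tRNA or snoRNA genes, and the dashed line marks equal differences. Most long features sit above 0 in both pairs and ribosomal protein genes sit below 0 in pair 2; FAS1 and FAS2 lie near 0 in pair 1, at 0.03 and 0.09.

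Acetyl-CoA carboxylase, ACC1 (YNR016C, chromosome XIV, 654673 to 661374), makes the malonyl-CoA that the MPT domain loads. ACC1 had 4113 and 11505 scaled RPM in the IPs and 2635 and 2692 in the totals. Both IPs were above both totals, IP 2 by much more than IP 1. The log2 difference was 1.37 ± 0.39 (SE, n = 2 each), 0.64 and 2.10 in the pairs, and it was not called (limma adjusted p = 0.640). Of the 194 long features, 8 had a larger difference. Among the 10 strains fitted, FAS1dMPT-GFP had the highest difference for ACC1, with PFK2-GFP at 0.80 and FAS1-GFP at 0.71. The strain with the FAS2 deletion, also grown with added fatty acids, stood at 0.67. Its ACC1 values were 10296 and 3582 scaled RPM in the IPs and 4261 and 3420 in the totals. The 6 strains tagged on another complex had a mean of 0.49, and the excess of 0.88 over that mean was not called (limma adjusted p = 1.00). In FAS1dMPT-GFP the log2 difference rested on IP 2: it was 0.62 without that library and 2.11 without IP 1, each with 1 IP library left. With a weight for each library ACC1 was called (limma adjusted p = 0.0122).

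The other enzymes that make, elongate and desaturate fatty acids gave no common direction. Of 16 genes listed, 14 were tested. The list had 1 member with an unadjusted p below 0.05 above 0, ACC1, and 1 below, TSC13, the enoyl reductase of the elongation cycle. TSC13 had 148 and 89.6 scaled RPM in the IPs and 185 and 160 in the totals, with both IPs below both totals, and a log2 difference of -0.58 ± 0.26 (limma adjusted p = 0.853). ELO2, an elongase, had a difference of -0.49, and HFA1, the mitochondrial acetyl-CoA carboxylase, 0.82. The list's median was -0.13, against -0.05 over all features.

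Genes that handle fatty acids from outside had medians on both sides of 0. Of all features tested, 27.4% had both IPs above both totals and 29.3% had both below. Of 5 genes for uptake and activation, 4 had both IPs above, none passed an unadjusted p of 0.05, and the median was 0.32. FAA2, an acyl-CoA synthetase, had 31.6 and 69.3 scaled RPM in the IPs and 25.9 and 27.8 in the totals, a log2 difference of 0.78 ± 0.53 (SE). FAA1, another synthetase of this family, had 438 and 746 in the IPs and 356 and 371 in the totals, a difference of 0.65, and FAT1, a transporter, a difference of -0.15. For peroxisomal beta-oxidation, which breaks fatty acids down, 15 of 20 genes were tested, 5 had both IPs above both totals and 3 below, and the median was 0.16. CAT2, carnitine acetyltransferase, stood at 0.44 and ANT1, the peroxisomal adenine nucleotide carrier, at -0.37. Of 25 tested genes for peroxisome biogenesis, 4 lay above and 6 below, with a median of -0.15 and the widest difference in PEX6, an ATPase of the import machinery, at 1.28 ± 0.64 (SE).

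**Figure D3:**
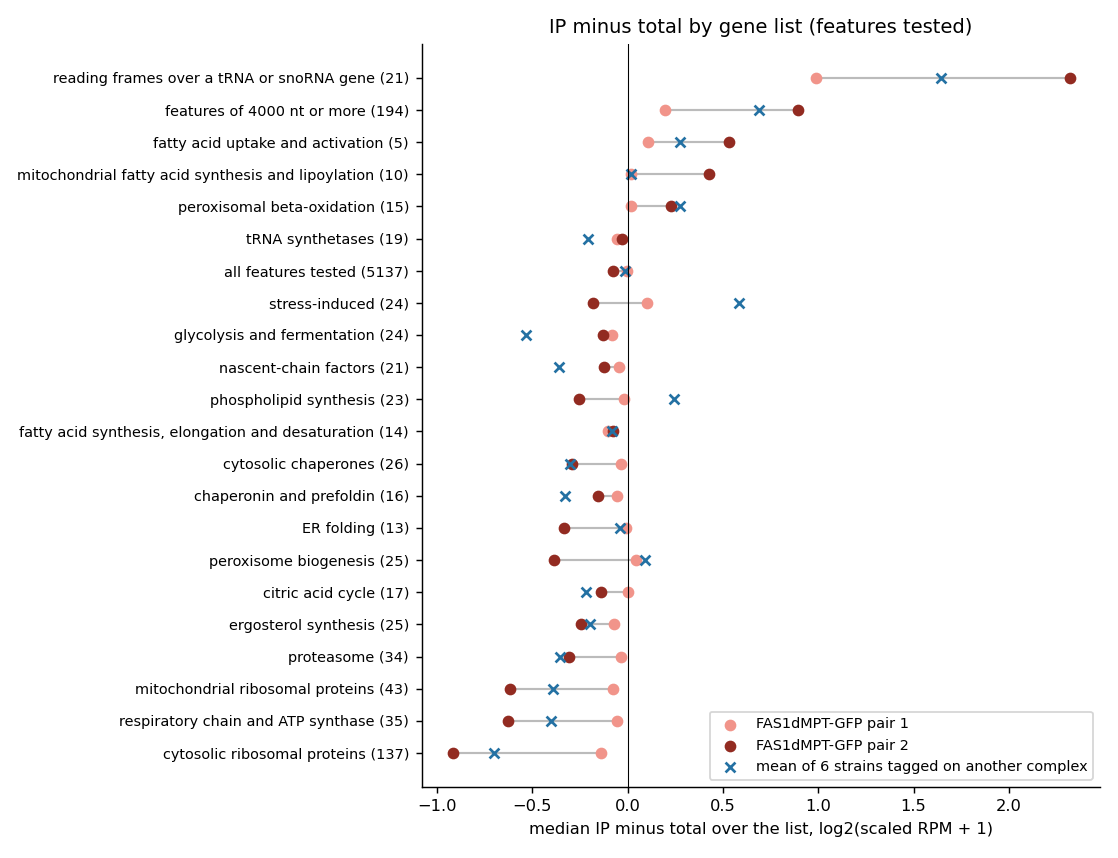
Median log2 difference of IP minus total for each gene list, with pair 1 and pair 2 of FAS1dMPT-GFP as circles and the mean of 6 strains tagged on another complex as crosses; the number of tested features is in brackets. Reading frames over tRNA or snoRNA genes and long features are at the top, and cytosolic ribosomal protein genes at the bottom with -0.14 in pair 1 and -0.92 in pair 2.

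Lipid pathways around the synthase were spread about 0. Phospholipid synthesis had a median of -0.13 over 23 genes, with 1 member past an unadjusted p of 0.05, higher. INO1, which makes inositol phosphate for phosphatidylinositol, had 424 and 1002 scaled RPM in the IPs and 313 and 486 in the totals, so the groups overlapped. Ergosterol synthesis had a median of -0.16 over 25 genes, with 2 members past an unadjusted p of 0.05, both higher. These were ERG10, acetoacetyl-CoA thiolase, at 0.59 ± 0.23 and IDI1, an isomerase of the isoprenoid pathway, at 0.69 ± 0.30 (SE). Mitochondrial fatty acid synthesis and lipoylation had a median of 0.20 over 10 genes, again with 2 members past that level and higher, LIP2 and LIP5, which attach and complete lipoic acid, at 0.79 and 0.67.

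Ribosomal protein genes lay lower in the IPs. Of 137 genes for cytosolic ribosomal proteins, 103 had both IPs below both totals, against 29.3% of all features, and none had both above. All 137 log2 differences were negative, with a median of -0.53, and 1 had an unadjusted p below 0.05. RPL20A, a protein of the large subunit, had 805 and 447 scaled RPM in the IPs and 1100 and 919 in the totals, with a log2 difference of -0.74 ± 0.34 (SE; limma adjusted p = 0.853). RPS22B had the smallest difference, -0.13. The list's median was -0.14 in pair 1 and -0.92 in pair 2, -0.59 in FAS1-GFP and -0.70 over the strains tagged on another complex. For mitochondrial ribosomal proteins 28 of 43 lay below and 1 above, with a median of -0.36, and for the respiratory chain and ATP synthase 22 of 35 lay below and none above, with a median of -0.37. ATP15, the small epsilon subunit of the ATP synthase, was the lowest of the respiratory list at -0.99 ± 0.48 (SE). Short features in general lay lower in the IPs. Both IPs were below both totals for 55.0% of features under 500 nt and 44.7% of those from 500 nt to below 1000 nt. The part of length in the values of these lists was not tested.

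Feature length ordered the differences. The median log2 difference was -0.41 for the 524 features under 500 nt, -0.23 for the 1341 from 500 nt, -0.02 for the 1188 from 1000 nt and 0.06 for the 829 from 1500 nt. It was 0.20 for the 779 features from 2000 nt, 0.38 for the 282 from 3000 nt and 0.55 for the 194 of 4000 nt or more. In the longest class 152 of 194 had both IPs above both totals, against 27.4% of all features, and 7 had both below; 34 had an unadjusted p below 0.05 and a higher IP, and none a lower one. The order held in both pairs, with medians in the longest class of 0.19 in pair 1 and 0.89 in pair 2. Spearman's rho of length with the difference was 0.543 here, 0.597 in FAS1-GFP and 0.595 for the mean of the strains tagged on another complex, as descriptions over features that share libraries. FAS2 and FAS1, of 5664 and 6156 nt, belong to the longest class, whose median of 0.55 is close to the difference of FAS2 at 0.57.

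**Figure D4:**
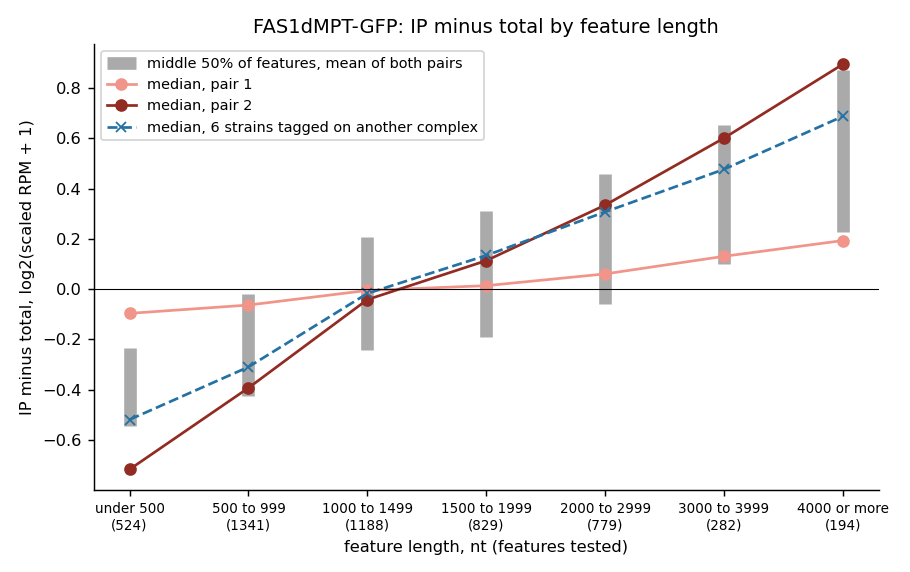
IP minus total of FAS1dMPT-GFP by feature length in nt, with the number of features in brackets; points are medians of pair 1, pair 2 and the mean of 6 strains tagged on another complex, and grey bars span the middle 50% of features for the mean of both pairs. The median climbs with length in both pairs, to 0.19 in pair 1 and 0.89 in pair 2.

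The features with the widest differences were reading frames that overlap tRNA genes, where reads from the frame and from the tRNA cannot be told apart. YPR108W-A had 70.7 and 471 scaled RPM in the IPs and 1.90 and 3.34 in the totals, a log2 difference of 5.70 ± 1.38 (SE; limma adjusted p = 0.640). It was called with a weight for each library (limma adjusted p = 0.0299). Without IP 1, which leaves 1 IP library, the difference was 7.05. YNL042W-B had 63.2 and 1244 in the IPs and 7.54 and 5.21 in the totals, a difference of 5.28. The other 4 of this kind, YOR072W-B, YHR180W-A, YOL013W-A and YDR278C, had differences of 5.25, 5.14, 4.54 and 4.46. Both IPs were above both totals for 13 of the 21 tested reading frames over a tRNA or snoRNA gene, against 27.4% of all features. An unadjusted p below 0.05 with a higher IP was found for 6, against 4.57% of all features, and IP 2 was the highest library for each of the 6 named. The list's median was 1.55 in FAS1dMPT-GFP and 1.65 over the strains tagged on another complex.

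Among reading frames with no such overlap, 4 followed by the same rule. It required an unadjusted limma p below 0.05, at least 1 log2 and both IPs on one side of both totals. YAP3, a transcription factor of the bZIP family, had 37.1 and 134 scaled RPM in the IPs and 19.1 and 19.9 in the totals, and a log2 difference of 1.81 ± 0.46 (SE; limma adjusted p = 0.640). The difference was 0.89 without IP 2 and 2.72 without IP 1, each with 1 IP library left. YAP3 was called with a weight for each library (limma adjusted p = 0.0122). CCW14, a cell wall glycoprotein, had 775 and 1982 in the IPs and 389 and 424 in the totals, a difference of 1.61, which was called with a weight for each library (limma adjusted p = 0.0486). DUR12, which degrades urea, had 153 and 552 in the IPs and 82.0 and 119 in the totals, a difference of 1.55. IRC9 had a difference of 1.65. In each of these 4, IP 2 was higher than IP 1, while the place of both above the totals was a condition of the rule. In all, 68 features met that rule in the higher direction and 1 in the lower, SHG1, a subunit of a histone methyltransferase complex, with 5.45 and 2.12 scaled RPM in the IPs and 8.01 and 8.76 in the totals.

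**Figure D5:**
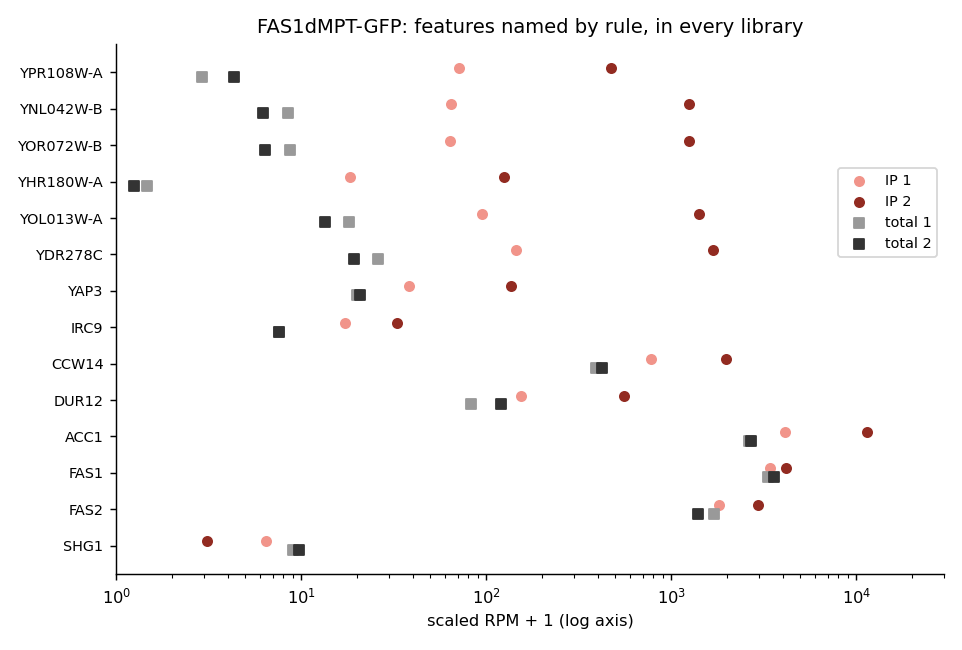
Scaled RPM + 1 on a log axis in the 4 FAS1dMPT-GFP libraries for the features named by rule, with ACC1, FAS1 and FAS2. Circles are IPs and squares totals. The rule required both IPs on one side of both totals, and they lie below only for SHG1. Both IPs also lie above both totals for ACC1 and FAS2, while for FAS1 IP 1 lies between the totals.

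Chaperones and other factors that meet nascent chains had no called member. Of 26 cytosolic chaperones, 5 had both IPs above both totals, against 27.4% of all features, and 13 both below, against 29.3%, with a median of -0.14, and none of them had an unadjusted p below 0.05. SIS1, a co-chaperone of the Hsp40 kind, had a difference of -0.59 and SSA3, an inducible Hsp70, 0.83. Of 16 chaperonin and prefoldin genes 1 passed an unadjusted p of 0.05, CCT7, a chaperonin subunit, with 252 and 390 scaled RPM in the IPs and 222 and 205 in the totals (0.55 ± 0.21, SE). Nascent-chain factors had 0 of 21 past that level, and EGD1, a subunit of the nascent polypeptide-associated complex, had a difference of -0.64. In the endoplasmic reticulum, ERO1, the thiol oxidase that drives disulfide formation, had 176 and 403 in the IPs and 125 and 109 in the totals, a difference of 1.18 ± 0.33 (SE), while its partner PDI1 had -0.48. Both had an unadjusted p below 0.05, and neither was called (limma adjusted p = 0.640 and 0.853). ERO1 was called with a weight for each library (limma adjusted p = 0.0267). Its difference was 1.77 without IP 1 and 0.59 without IP 2, each with 1 IP library left.

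Of the other lists, none had more than 1 member with an unadjusted p below 0.05. Proteasome genes had a median of -0.18 over 34, and RPN4, the transcription factor of those genes, 0.75 ± 0.29 (SE). RPN4 stood at 1.32 without IP 1 and 0.18 without IP 2, each with 1 IP library left. Of 19 tRNA synthetase genes CDC60, the leucyl-tRNA synthetase, had 1118 and 2377 scaled RPM in the IPs and 914 and 894 in the totals, a difference of 0.85, and the list's median was -0.04. CDC60 stood at 1.39 without IP 1 and 0.30 without IP 2, each with 1 IP library left. Glycolysis and fermentation had a median of -0.08 over 24 genes, against -0.53 over the strains tagged on another complex and -0.45 in FAS1-GFP. ENO2, an enolase, stood at -0.58 and PFK1, a phosphofructokinase subunit, at 0.37. The citric acid cycle had a median of -0.15 over 17 genes. Stress-induced genes had a median of -0.05 over 24 genes, against 0.58 over the strains tagged on another complex and -0.95 in FAS1-GFP. These differences between medians were not tested.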

How the data were processed

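Ribosome footprints of total and IP translatomes were compared. The submitters' processing notes name cutadapt 1.8.3. For the aligner, the counting and the strand setting no source used here gives a name. The deposited tables hold RPM values per gene, taken as RPM because low values are multiples of 1 step. Between 13.4% and 34.3% of values in the 4 FAS1dMPT-GFP libraries were whole reads within 0.01 read, so reads were not recovered and the planned count test was not used. Of 6605 features, 5919 matched a RefSeq R64 locus tag and 5868 had its coordinates; 28 mitochondrial features entered neither the scaling nor the fit.

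RPM were set to the reads over nuclear genes, scaled by an unweighted trimmed mean (trim 0.3 of ratios, 0.05 of means), kept at a mean of at least 5 and transformed as log2(value + 1). The 40 libraries of the 10 strains with 2 replicates of both fractions were fitted with limma-trend 3.58.1 (R 4.3.3) without a block, so each SE uses all groups. Calls needed a Benjamini-Hochberg adjusted p below 0.05 over all features and 1 log2. The step was tested on simulated data with independent noise of equal spread in every library. That test cannot show how the fit handles the unequal spread of these libraries. Depth is implied from the value step, and intervals cover the fit's spread. Members and lists were chosen with earlier results of these data known. Named were FAS1, FAS2, called genes, up to 10 features each way past an unadjusted p of 0.05 and 1 log2 with both IPs on one side, the outermost 2 of each list each way, and 5 changes each way against FAS1-GFP; of the last 2 groups the text gives a part. Alternatives were scalings, pseudocounts, filters, a replicate block, library weights, other sets of libraries and each library left out. A fit with a library left out has 1 library in that group, and the spread comes from the other groups.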

Additional observations from a re-analysis of the deposited data

Results flagged for a closer look

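The change of FAS2 between FAS1dMPT-GFP and FAS1-GFP, -5.62 on the log2 scale, met the test of a difference between strains in its IP effect. GUS1 met it against the strains tagged on another complex, at -1.41. Mitochondrially encoded features, which the comparisons leave out, took 0.139% and 0.173% of the listed reads in the FAS1dMPT-GFP IPs and 0.0840% and 0.0734% in its totals, so both IPs were above both totals. COX1, a subunit of cytochrome oxidase, was the most abundant of them, with 255 and 304 deposited RPM in the IPs and 169 and 142 in the totals. With 2 libraries in each group no sample could be tested for standing apart from its group.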

How the results depend on the processing

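In FAS1dMPT-GFP, IP against total gave 0 calls in the main analysis, 1 with a replicate block (YPR108W-A, limma adjusted p = 0.00675), 37 with library weights and 0 to 103 with a library left out, the 103 without IP 1. FAS1 reversed to -0.031 without IP 2 (range with a library left out -0.031 to 0.26), and FAS2 ranged from 0.23 to 0.92. The count of changes against FAS1-GFP was 1, and it was 0 with no further scaling, 3 with the replicate block (FAS2, HAC1 and YDR133C, the last 2 at adjusted p = 0.0373), 2 with the libraries of these strains alone, and 0 to 12 with a library left out, the 12 without FAS1-GFP total 1. The FAS2 change was -4.59 (limma adjusted p = 0.0711) with no further scaling, which moves the median of all features by 0.98, and -6.07 to -5.17 with a library left out. Its call was lost without FAS1dMPT-GFP IP 1 (0.0862) or total 1 (0.0576) and without FAS1-GFP IP 2 (0.101). Without FAS1-GFP pair 2, chosen after seeing the data, the count was 0 and the FAS2 change -5.33. Against the strains tagged on another complex the count of 1 was 0 with no further scaling or no filter. The call was lost in most fits with a library left out. The cause of these shifts was not tested. Deviations of same-numbered libraries correlated above 0.1 in 9 of 10 strains, at 0.220 in FAS1dMPT-GFP, 0.835 in GUS1-GFP and 0.002 in ARC1-GFP. The main fit had no block because the labels do not say that a number marks a shared culture, so an existing pairing may be ignored. With the block, features with an unadjusted limma p below 0.05 for IP against total rose from 259 to 592. The 2 libraries in each group and their unequal spread limit the precision of every difference.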
